A study of Mus musculus with 6 samples.

Results

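The 9 genes described here build the anchorage of the basal keratinocyte: Lama3 and Lamb3 (chains of laminin 332), Col17a1 and Col7a1 (anchoring collagens), Itga6 and Itgb4 (the α6β4 integrin), Dst and Plec (plakins) and Cd151 (a tetraspanin). They were taken by name, and their probes were found through the gene symbol of the RefSeq accession that each probe carries in the scanner files. They are 9 of 21368 named genes and hold 14 of 55681 probes, 28331 of which received a symbol. Cd151, Lama3 and Dst have several probes and the other genes have 1 each, and a gene is represented by its brightest probe.

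Epidermis of embryonic day 16 was hybridised to 6 two-colour arrays, each pairing a knockout with its wild-type littermate control, and Sox4cKO, Sox11cKO and Sox4/11 dcKO (called dcKO) had 2 arrays each. The knockouts carried floxed alleles of Sox4, of Sox11 or of both, removed by Krt14-Cre, which is active in basal keratinocytes and their descendants, so cells of other lineages in the sample keep both genes. The labels give the strain as 129SvEx:C57BL/6, and the methods give FVB/N for the Cre line. The floxed founders were also Sox12-/-, and the Sox12 genotype of the embryos on the arrays, like the floxed and Cre status of the controls, is not given in the sources used here. Dorsal skin was treated with dispase and the epidermis peeled away before RNA was extracted. Dispase cuts the sheet loose at the basement membrane, so the tissue measured here holds the basal cells that make these transcripts. The knockout carried Cy5 on replicate 1 and Cy3 on replicate 2. The number of animals behind each sample is not given in the sources used here. All values below are log2(knockout/wild type), so that 0 means equal signal, and each array is given in that order (replicate 1, then replicate 2).

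Hemidesmosomes rivet the keratin filaments of basal keratinocytes to the basement membrane. Inside the cell, the plakins plectin and dystonin (the bullous pemphigoid antigen, in its epithelial form) hold keratin, the α6β4 integrin and collagen XVII cross the membrane with CD151 beside them, and laminin 332 outside binds the integrin. Collagen VII forms the anchoring fibrils that tie the basement membrane to the dermis, and inherited loss of most of these proteins leaves skin that blisters.

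All 9 brightest probes, and 12 of the 14 probes, were well above background in all 12 channels, and 1 Dst probe was above background in none. The raw signal of the wild-type sample in Cy3 ranged from 2718 to 3895 for the Plec probe, over a background of at most 35, and from 264 to 289 for the Lamb3 probe, over at most 32. The basal keratinocyte markers Krt5, Krt14, Krt15 and Trp63 were also above background in all 12 channels, and their median per array lay between −0.05 and 0.22. Of the targeted genes, the dimmer Sox4 probe was lower in Sox4cKO (−1.96, limma adjusted p = 0.028) and in dcKO (−1.58, adjusted p = 0.0022), and the brighter one did not pass the test (−0.42 and −0.82). The Sox11 probes were above background in 4 and 0 channels and could not check the genotype. Several libraries differed in dermal fibroblast markers (9 genes, 8 of them above background in all 12 channels), whose median per array was −2.57 and 0.77 in Sox4cKO, 0.94 and −0.65 in Sox11cKO, and −1.63 and −1.36 in dcKO. The first Sox4cKO array stood apart from the second in these genes and in skeletal muscle markers (median −1.42, against −0.01 on replicate 2). Of the 6 skeletal muscle markers, 1 was above background in all 12 channels and 2 were in none. Sox11cKO replicate 2 stood apart from replicate 1 in suprabasal markers (1.45, against 0.14). Periderm markers (6 genes) had medians of 0.66 and 0.41 in Sox4cKO, −1.51 and −0.58 in Sox11cKO, and −1.10 and −1.04 in dcKO. In dcKO 3 of these 6 passed the test, all lower, against 0.833% of all probes in either direction. Among probes well above background in all 12 channels, where all 6 lie, the share was 1.68%. The medians of the 9 anchoring genes on the same arrays were −0.03, 0.07, −0.08, 0.18, −0.17 and −0.09. In whole epidermis, fewer cells of a type and less RNA per cell cannot be told apart.

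No anchoring gene passed the test in any knockout. At a limma adjusted p under 0.05, 0 of the 14 probes were called in Sox4cKO (3 of all probes, 0.00539%), 0 in Sox11cKO (0 of all probes, 0%) and 0 in dcKO (464 of all probes, 0.833%). At an unadjusted p under 0.05 the counts were 1, 0 and 3 of 14, against 6.18%, 7.05% and 9.89% of all probes. The 3 in dcKO include the Dst probe above background in no channel, and 2 of 13 remain without it. In dcKO the background share among the 18118 probes well above background in all 12 channels, where 12 of the 14 lie, was 1.68% for the adjusted call and 14.1% for the unadjusted one. In every genotype the 95% interval of each of the 14 probes lay within ±1, and so inside the log2 of 1.5 in the study's methods. A legend of the study for these arrays gives a fold change over 1.5 without log2. That is a smaller change, and the intervals were not set against it. The bound farthest from 0 was 0.628 in Sox4cKO, 0.609 in Sox11cKO and 0.886 in dcKO. Changes up to these bounds lie within the intervals of this fit, which has 2 arrays a genotype. The fit takes out the offset between replicate 1 and replicate 2, so the intervals leave out that part of the spread. In Sox11cKO, for example, Col7a1 read −0.23 and 0.74, both outside its interval of −0.10 to 0.61. Intervals that keep this offset are not given here. The median of the 9 genes was 0.01 in Sox4cKO, 0.12 in Sox11cKO and −0.10 in dcKO, and the median over all probes was 0.00, −0.00 and −0.00. The median absolute change was 0.119, 0.117 and 0.129 for the 9 genes, and 0.109, 0.113 and 0.121 over all probes.

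**Figure D1:**
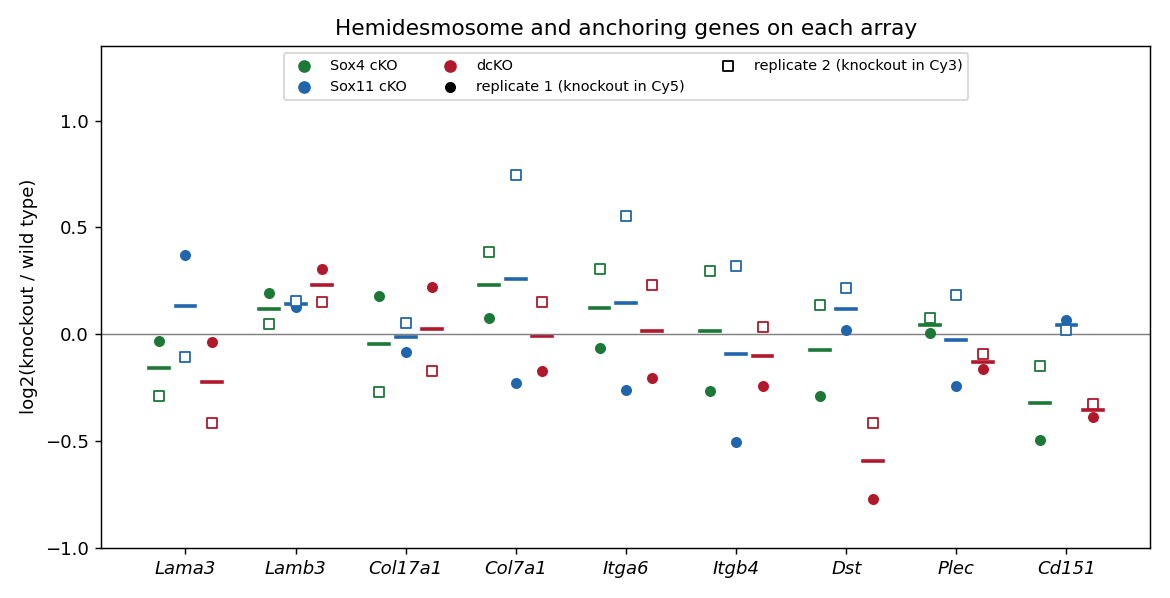
log2(knockout/wild type) of the brightest probe of each of the 9 genes on the 6 arrays. Filled circles are replicate 1, open squares are replicate 2 and bars are the mean of the 2 arrays. Most genes straddle 0, the squares of Col7a1, Itga6, Itgb4, Dst and Plec lie above their circles in every genotype, and Dst in dcKO is the lowest (−0.77 and −0.41).

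The laminin 332 chains Lama3 and Lamb3 had fold changes of opposite sign in Sox4cKO and dcKO, and of the same sign in Sox11cKO. None of these was called, and the difference between the chains was not tested. Lama3, the α3 chain, read −0.03 and −0.29 in Sox4cKO, 0.37 and −0.11 in Sox11cKO, and −0.04 and −0.41 in dcKO. Its fold change was −0.16 ± 0.13 (SE, n = 2 arrays a genotype throughout), 0.13 ± 0.13 and −0.23 ± 0.13. The dimmer Lama3 probe gave 0.05, 0.23, −0.18, 0.36, −0.33 and 0.26 over the same 6 arrays, with a dcKO fold change of −0.04. The brighter probe was below 0 on both arrays in Sox4cKO and dcKO, and the dimmer one was not. Lamb3, the β3 chain, was the only gene above 0 on all 6 arrays: 0.19 and 0.05 in Sox4cKO, 0.13 and 0.15 in Sox11cKO, and 0.31 and 0.15 in dcKO. Its dcKO fold change of 0.23 had a 95% interval from −0.06 to 0.52 (adjusted p = 0.615).

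Of the anchoring collagens, Col17a1, the transmembrane collagen XVII, stayed close to 0, with fold changes of −0.05 in Sox4cKO, −0.02 in Sox11cKO and 0.02 in dcKO, each ± 0.15. Its arrays read 0.18 and −0.27, −0.08 and 0.05, and 0.22 and −0.17, so that the pair of arrays lay on both sides of 0 in every genotype. Col7a1, the anchoring fibril collagen, read 0.07 and 0.39 in Sox4cKO, −0.23 and 0.74 in Sox11cKO, and −0.17 and 0.15 in dcKO. The 0.74 was the highest value of the 9 genes on any array, and the other array of that genotype went the opposite way. The fold changes were 0.23 ± 0.15, 0.26 ± 0.15 and −0.01 ± 0.15, and the dcKO value differed from the sum of those of the single knockouts by −0.50 (95% interval −1.11 to 0.11, adjusted p = 0.825).

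The α6β4 integrin chains showed the same order of replicates as Col7a1. Itga6 read −0.06 and 0.30 in Sox4cKO, −0.26 and 0.56 in Sox11cKO, and −0.20 and 0.23 in dcKO. Itgb4 read −0.26 and 0.29, −0.50 and 0.32, and −0.24 and 0.03. Replicate 1 was below replicate 2 in all 3 genotypes for both genes, and the fold changes after averaging were between −0.10 and 0.15.

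This offset lay between arrays of the same genotype. Replicate number and dye orientation coincide here, so they cannot be told apart. For Col7a1, Itga6 and Itgb4, all 3 values of replicate 1 lay below all 3 of replicate 2, which was the case for 3 of 9 genes and 4 of 14 probes, against 11.3% of all probes. The opposite order held for 1 of 9 genes, Lama3, and 2 of 14 probes, against 12.4%. The dimmer Lama3 probe had the same order as Col7a1, so the order differed between the probes of this gene. The mean of replicate 1 minus that of replicate 2 was −0.54 for Col7a1, −0.54 for Itga6 and −0.55 for Itgb4. The dye coefficient of the model, which is this difference divided by 2, had limma adjusted p values of 0.181, 0.154 and 0.154. Over the 6 arrays Col7a1 and Itga6 had Pearson r = 0.97 and Itga6 and Itgb4 r = 0.95, as a description of 6 points that share replicate and dye. Col7a1 and Plec also had r = 0.95, and the pairs of the 9 genes ran down to −0.83 (Lamb3 and Dst). With the dye offset removed, Col7a1 and Itga6 had r = 0.98, as did Lama3 and Cd151. Itga6 and Itgb4 fell to r = 0.70, and Col7a1 and Itgb4 went from 0.91 to 0.73. The 5 genes outside the 9 whose 6-array pattern was most like the median of the 9 were Slc23a3 (r = 0.992), 2510039O18Rik (0.990), Dhdds (0.988), Slc39a6 (0.987) and Dbr1 (0.986), among 10387 genes above background in all 12 channels.

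**Figure D2:**
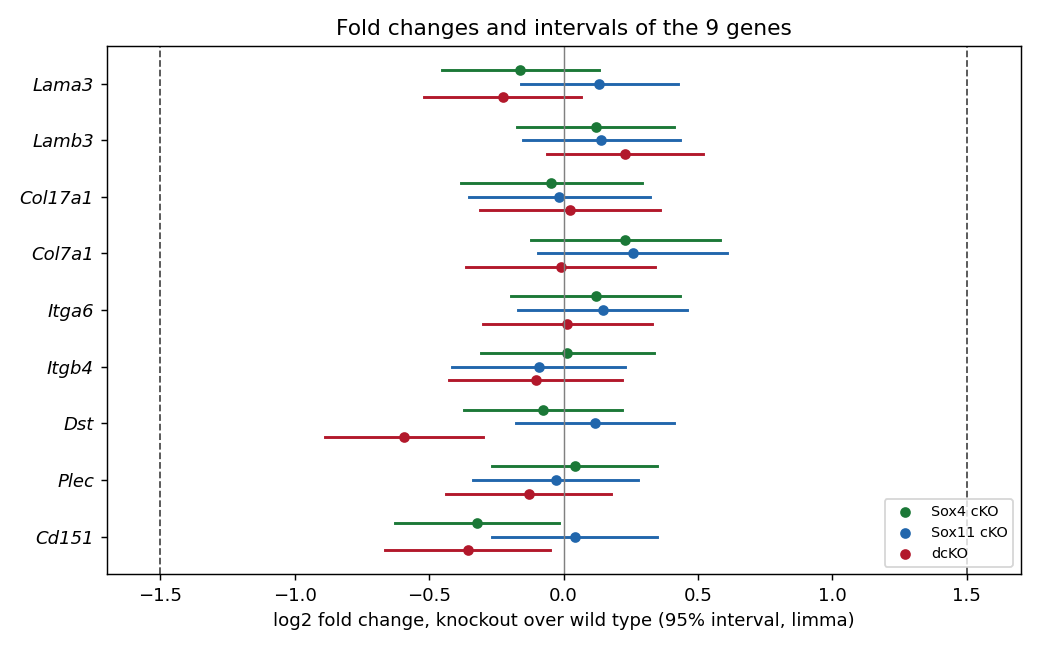
Fold change of each of the 9 genes in the 3 knockouts, with limma's 95% interval, and dashed lines at ±1.5, the log2 threshold of the study's methods. A legend of the study for these arrays gives a fold change over 1.5 without log2, a smaller change that is not drawn. Every interval lies inside the dashed lines, and the intervals leave out the offset between replicates. Only Dst in dcKO and Cd151 in Sox4cKO and dcKO have intervals that leave out 0, and none of the 3 passes the adjusted test.

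Among the plakins, Plec, the plectin that links the integrin to keratin, had small values on all arrays: 0.01 and 0.07 in Sox4cKO, −0.24 and 0.18 in Sox11cKO, and −0.16 and −0.09 in dcKO. Dst, the dystonin gene, held the largest fold change of the 9 genes. Its brightest probe, A_51_P489996, read −0.29 and 0.14 in Sox4cKO, 0.02 and 0.22 in Sox11cKO, and −0.77 and −0.41 in dcKO. Both dcKO arrays lay below all arrays of the single knockouts. As Dst is singled out for its large dcKO change, this order is not separate support, and the share of all probes with it was not counted. On the dcKO arrays the raw signals were 1201 for the knockout against 1423.5 for the wild type on replicate 1, and 807 against 1749 on replicate 2. These signals are not normalised and the dyes are swapped between the replicates, so they show the level of signal and not the size of the change. The dcKO fold change was −0.59 ± 0.13 (95% interval −0.89 to −0.30), with an unadjusted p of 0.0014 and a limma adjusted p of 0.106, so it did not pass the test. It passed under 4 of 9 other settings of the processing, with an adjusted p as low as 0.0035, and it stayed above the threshold under the other 5. Between genotypes, Dst in dcKO was −0.52 from Sox4cKO (95% interval −0.93 to −0.10, adjusted p = 0.747), −0.71 from Sox11cKO (−1.12 to −0.30, adjusted p = 0.444) and −0.63 from the sum of both (−1.14 to −0.13, adjusted p = 0.760). At adjusted p under 0.05, 0 of the 14 probes were called in these 3 contrasts, against 0.147%, 0.163% and 0.088% of all probes. At an unadjusted p under 0.05 they held 1, 2 and 1, against 6.12%, 7.21% and 6.38%, and 1 in each without the Dst probe above background in no channel.

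The 4 Dst probes carry different RefSeq accessions and did not read alike. A_51_P300434 gave 0.09 and −0.22 in Sox4cKO, 0.12 and −0.59 in Sox11cKO, and 0.19 and −0.23 in dcKO, with a dcKO fold change of −0.02 (95% interval −0.32 to 0.29). A_52_P445253, above background in 10 of 12 channels, read −0.19 on dcKO replicate 1 and −0.18 on replicate 2, with a fold change of −0.19 (−0.52 to 0.15) that moved to −0.55 with the Feature Extraction log ratio (adjusted p = 0.632). A_55_P2161132 was above background in 0 channels, so its 0.48 and 0.44 in dcKO come from signals of 53 and 38 in the knockout and are not a measure of Dst. The probes of NM_010081 and NM_133833 were thus below 0 on both dcKO arrays, and that of NM_134448, at a raw signal of 65 to 222, lay on both sides of 0. For the NM_133833 probe the knockout channel of dcKO replicate 2 was not above background (raw signal 41.5). Its value there is near the floor and adds little to that of the brightest probe. The difference between the probes was not tested.

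**Figure D3:**
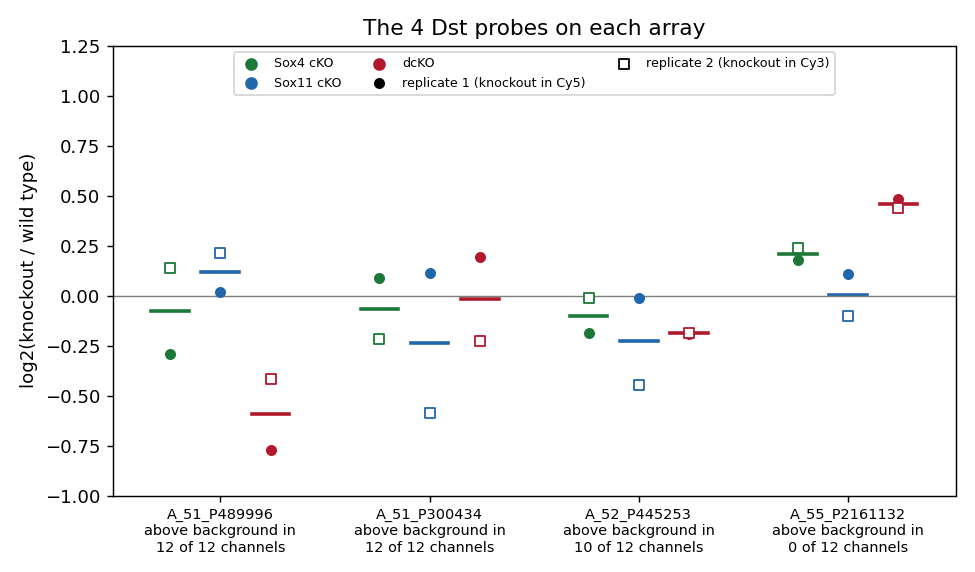
log2(knockout/wild type) of the 4 Dst probes on each array, with the number of the 12 channels in which each was above background. The brightest probe, on the left, is lowest in dcKO at −0.77 and −0.41, the second straddles 0 in dcKO, and the rightmost is above background in no channel.

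Dst also has 2 annotated starts far apart in the RefSeq promoter windows (build GRCm38.p6), and the 250 bases before each are shown because the gene's probes differ. They lie on chromosome 1, plus strand, at chr1:34011345-34011594 and chr1:34160010-34160259. Which probe belongs to which start is not given by these tables. Capitals mark ACAAAG on either strand, the core letters bound by SOX factors.
Dst, first window: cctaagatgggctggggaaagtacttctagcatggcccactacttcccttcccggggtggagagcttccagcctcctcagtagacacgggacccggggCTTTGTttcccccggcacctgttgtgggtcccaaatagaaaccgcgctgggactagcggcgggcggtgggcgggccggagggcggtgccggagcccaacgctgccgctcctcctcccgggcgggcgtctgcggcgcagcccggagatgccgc
Dst, second window: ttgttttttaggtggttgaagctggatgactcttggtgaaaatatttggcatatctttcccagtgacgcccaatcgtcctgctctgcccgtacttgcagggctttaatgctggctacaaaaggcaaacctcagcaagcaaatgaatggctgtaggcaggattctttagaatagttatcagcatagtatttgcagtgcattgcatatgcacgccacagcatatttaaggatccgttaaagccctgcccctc
The first window held the motif once, with its first base 152 bases before the start, and the second window held none. Among the windows of the 9 genes, 8 were used, for 5 genes, and 1 of the 8 (12.5%) held the motif, against 5408 of 32851 windows in the whole set (16.5%). The windows of the 9 genes leave out a chromosome that the whole set keeps. A match of letters is not a binding site.

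Cd151, the tetraspanin that sits with the laminin-binding integrins, was lower on both arrays of Sox4cKO (−0.50 and −0.15) and of dcKO (−0.39 and −0.33), and near 0 in Sox11cKO (0.07 and 0.02). The fold changes were −0.32 ± 0.13 in Sox4cKO (unadjusted p = 0.042, adjusted p = 0.805), 0.04 ± 0.13 in Sox11cKO and −0.36 ± 0.13 in dcKO (unadjusted p = 0.028, adjusted p = 0.428). None passed the limma test. The dimmer probe read −0.16 and −0.10 in Sox4cKO, 0.29 and −0.11 in Sox11cKO, and −0.06 and −0.30 in dcKO. Its signs matched those of the first probe in Sox4cKO and dcKO, with smaller sizes. In dcKO 4 of the 9 genes and 6 of the 14 probes were below 0 on both arrays, against 25.2% of all probes and 30.4% of those well above background in all 12 channels.

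The wider adhesion list around these genes (61 genes, all with a probe) was examined with the same fit. In dcKO 3 of the 61 passed the test, all lower. The share called in either direction was 0.833% of all probes. It was 1.68% of those well above background in all 12 channels, where 44 of the 61 lie. All 3 called genes were among the 21 other basement membrane proteins: Col4a1 and Col4a2, which form the main collagen IV network, and Fbln2, a fibulin of the basement membrane. Col4a1 read −1.29 and −1.62 (fold change −1.46, adjusted p = 0.0070), Col4a2 −0.90 and −1.01 (−0.96, adjusted p = 0.037), and Fbln2 −1.34 and −1.21 (−1.28, adjusted p = 0.0034). Leaving out dcKO replicate 2 left 1 of the 3, Fbln2, past the test, with Col4a1 at an adjusted p of 0.079 and Col4a2 at 0.525, and Col4a2 also missed it without dcKO replicate 1 (0.067) or either Sox11cKO array (0.058). Among the other processing settings, the Feature Extraction log ratio lost all 3 calls (adjusted p from 0.292 to 0.348), and Col4a2 was also lost with scaling between arrays (0.054) and with no replicate block (0.080). In Sox4cKO the same probes read −1.38 and −0.81, −1.05 and −0.33, and −0.76 and −0.55, which did not pass the test, and in Sox11cKO Col4a1 read −0.13 and −0.30. None of the 61 passed in Sox4cKO or Sox11cKO. Between genotypes, 0 of the 61 passed in dcKO against Sox4cKO, against Sox11cKO or against the sum of both (lowest limma adjusted p 0.592, 0.098 and 0.748). The lower values were thus not shown to be particular to dcKO. The 21 other basement membrane proteins had a median of −0.25 in dcKO. The other lists had 0 called genes in dcKO, of 9 laminin chains, 16 receptors and partners, 3 basal keratins and 12 processing enzymes, with medians of −0.20, −0.12, 0.06 and −0.17. Their named members were Itga3 (−0.00) and Itgb1 (−0.10), which form the other laminin receptor of basal cells, and the basal keratins Krt5 (0.06), Krt14 (0.26) and Krt15 (−0.34, unadjusted p = 0.027, adjusted p = 0.428). Collagen IV is also made by dermal and vascular cells. Of the 9 dermal fibroblast markers, 6 were lower on both dcKO arrays (Col1a1 −1.63 and −2.22) and 2 were higher on both (Dcn 0.41 and 0.29, Postn 0.72 and 0.44), and 0 passed the test. The 6 endothelial markers had medians of −0.04 and 0.06 on these arrays. Only 1 of them was above background in all 12 channels and 3 were in none, so these medians say little about vascular cells. The part of dermal cells in the Col4a1, Col4a2 and Fbln2 values was not tested. The basal keratinocyte markers had medians of 0.01 and −0.05 on the dcKO arrays, and 0 of the 4 passed the test.

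**Figure D4:**
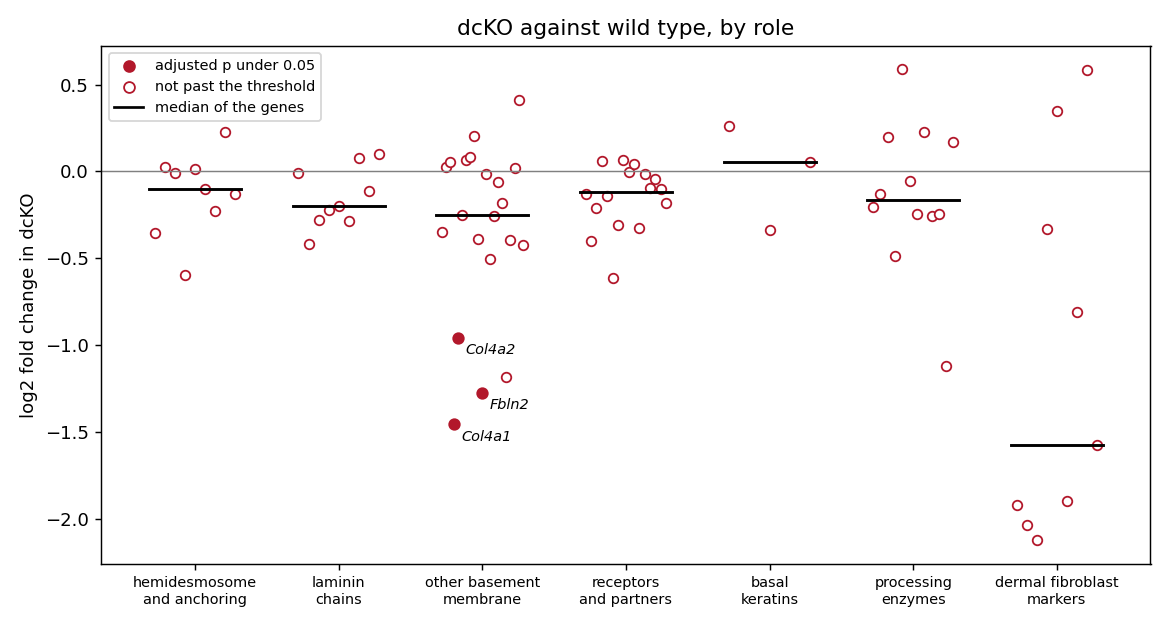
Fold change in dcKO of the 9 anchoring genes, the 61 genes of the wider list by role, and 9 dermal fibroblast markers, 1 point a gene, with a bar at the median. Filled points passed the limma test: they are Col4a1, Col4a2 and Fbln2. The anchoring genes sit around −0.10, and the fibroblast markers reach below −2.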

How the data were processed

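RNA from wild-type and knockout epidermis was hybridised in pairs to 6 Agilent two-colour arrays, all on 1 slide. The authors read them with Feature Extraction 11.0.1.1, and the deposited scanner files hold the median intensity of each spot and a log10 ratio. The deposited series table holds log2(knockout/wild type) per probe: the authors used limma (3.5 in the submitters' processing notes), normexp with an offset of 16 and loess. Set against values recomputed from the scanner intensities it had a slope of 1.00, so the ComBat colour step was not part of it. Between 38.9% and 43.6% of spots were well above background. limma 3.58.1 (R 4.3.3) was fitted to all 55681 probes with 3 genotype coefficients and 1 dye coefficient, with 6.65 prior and 2 residual degrees of freedom and Benjamini-Hochberg adjustment over all probes; p values are two-sided. The dye coefficient is the replicate block. Same-numbered arrays deviated together (r = 0.26, 0.31 and 0.33), with the numbers taken from the labels. A gene is named by its brightest probe, and every gene of the wider list past the test is named, with Itga3, Itgb1, Krt5 and Krt14 named in any case (another gene of this rule is not reported here). Symbols and promoter windows came from RefSeq (GRCm38.p6). The procedure was tested on simulated data. Precision was limited by the number of arrays. The members and lists were chosen with earlier results of these data known. Marker lists also covered suprabasal, periderm, endothelial, nerve, muscle, melanocyte, immune and red cells, of which only periderm had genes past the test in dcKO (3 of 6).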

Additional observations from a re-analysis of the deposited data

How the results depend on the processing

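Under the settings other than leaving out an array, every count of called anchoring probes in Sox4cKO, in Sox11cKO and in dcKO against Sox4cKO or against the sum stayed at 0. In dcKO against wild type the count was 1 with an offset of 50, 1 without background subtraction, 1 with only probes well above background on 2 or more arrays, and 3 with ComBat, and in dcKO against Sox11cKO it was 1 with an offset of 50 and 1 with ComBat. Dst was the probe gained each time, with Cd151 and the Dst probe not above background added by ComBat, which does not count the degree of freedom it uses. Over all probes dcKO had 464 calls, and 1376, 1105, 569 and 3628 under these 4 settings, 0 with the Feature Extraction log ratio, 372 with scaling between arrays and 270 with no replicate block. With no replicate block, dcKO had 0 called anchoring probes (lowest adjusted p 0.372). Leaving out each of the 6 arrays in turn called 0 in every comparison and left the median of the 9 genes between −0.0083 and 0.12 in Sox4cKO, −0.063 and 0.15 in Sox11cKO and −0.22 and 0.094 in dcKO. Dst in dcKO lay between −0.62 and −0.57, with an adjusted p between 0.119 and 0.661, the latter without dcKO replicate 1. Signs turned, none of them called, for Col17a1 with the Feature Extraction log ratio (0.0023 in Sox11cKO, −0.058 in dcKO) and, with an array left out, for these: Cd151 in Sox11cKO (−0.085 to 0.17), Col17a1 (−0.30 to 0.27 in Sox11cKO, −0.21 to 0.12 in Sox4cKO, −0.094 to 0.14 in dcKO), Col7a1 (−0.070 to 0.58 in Sox11cKO, −0.17 to 0.15 in dcKO), Itga6 (−0.0083 to 0.25 in Sox4cKO, −0.063 to 0.35 in Sox11cKO, −0.067 to 0.094 in dcKO), Itgb4 (−0.30 to 0.11 in Sox11cKO, −0.31 to 0.10 in dcKO) and Plec (−0.049 to 0.13 in Sox4cKO, −0.21 to 0.15 in Sox11cKO). For the wider list, settings chosen after seeing the data gave 6 called genes in dcKO with an offset of 50, 5 without background subtraction, 0 with the Feature Extraction log ratio, 11 with ComBat and 5 with only the dcKO arrays in the fit, against 3, and 1 to 5 with an array left out (5 without either Sox4cKO array, 1 without dcKO replicate 2).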
